A study of Xenopus laevis with 8 samples.

Results

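Red cells and the cells that line vessels share early regulators, and 10 genes known from them were followed in foregut endoderm of the frog Xenopus laevis: lmo2, tal1, gata1, gata2, gata3, hba1, runx1, kdr, tek and egfl7. They were found through the gene name column of the array annotation, with older Xenopus names of the same gene allowed. For 4 probe sets, both of tal1 and those of hba1 and tek, that column holds only a gene ID, which the RefSeq gene table pairs with the gene. Probe sets, the groups of short probes that each read 1 transcript, were found for 9 of the 10 genes, 13 probe sets of the 15491 tested. Runx1, a core blood regulator, was not matched to a probe set and is not analysed here. Tal1, gata1, gata2 and kdr each had 2 probe sets and the other genes 1. Where a gene had 2 they are called brighter and dimmer by their mean over all arrays, or gata1a and gata1b by the copies of gata1 they read, with no comparison of their levels.

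Foregut explants were taken at stage 15 and kept in saline until stage 23, intact in 1 condition and stripped of mesoderm beforehand in the other. RNA of the endoderm was measured in each case, so the endoderm that had been with mesoderm was parted from it only at the end of culture. When the endoderm was isolated and whether mesoderm was present cannot be told apart. Each condition had 4 arrays, numbered as sets 1 to 4, and the labels do not say whether a set is a clutch, a dissection day or an array batch. All samples were of 1 species with no other treatment named, and p-values measure only the spread between these samples, which may be technical.

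Lmo2, tal1 and the GATA factors act in 1 complex in blood precursors. The basic helix-loop-helix protein tal1 binds DNA with a partner such as tcf3 (E2A), gata1 or gata2 binds beside it, and lmo2 and ldb1 bridge them without touching DNA. The same precursors, sometimes called hemangioblasts, also give endothelium, which is known by the VEGF receptor kdr, the angiopoietin receptor tek and the secreted protein egfl7. In Xenopus embryos they arise in mesoderm and not in the endoderm itself. Some of them arise in the ventral mesoderm of the blood islands, whose anterior end lies beside the foregut.

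The tissue was checked first. Of 21 listed endoderm markers 18 were measured and 13 were above background, taken as the 95th percentile of 50 negative control probe sets on the same array. The endoderm factors foxa1, gata5 and hnf4a averaged 11.67, 10.79 and 11.07 on the log2 scale in endoderm alone, while cer1, frzb2, hhex and pdia2 were at background on all arrays. The summed endoderm marker intensity ran from 19090 to 25612 in endoderm alone and from 20165 to 22710 with mesoderm. Darmin was the largest part, at 8553 to 12937 alone and 9100 to 11720 with mesoderm. The ratio of the endoderm sums, with mesoderm over alone, was 1.01, 0.983, 1.08 and 0.827 in sets 1 to 4, so it was lowest in set 4. Of the 18 genes 4, cdx2, frzb2, gata5 and mix1, were higher with mesoderm in all 4 sets and 2, gata6 and sox17a, were lower in all. Of all probe sets these shares were 8.35% and 10.3%, and none of the 18 was called in either fit. Among the 4, cdx2 rose most, by 0.49 ± 0.45 (SD of the differences within sets), and was above background on 6 arrays. Array medians lay between 128.5 and 132.2 linear units. Arrays of 1 set resembled each other more than arrays of 1 condition did in sets 1 to 3, and set 4 stood apart. Its array of endoderm alone correlated best with endoderm alone of set 2 (r = 0.973). The set 4 array with mesoderm correlated best with endoderm alone of its own set (r = 0.970). The SD of the differences over all probe sets was 0.528 in set 4, against 0.25, 0.312 and 0.331 in sets 1 to 3. Results that rest on set 4 are given with and without it, or set by set.

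Few of the genes were well above background. Probe sets of lmo2, gata2 and gata1 were above it on all 8 arrays, 4 of the 13 probe sets against 53.8% of all probe sets. On at least 4 arrays it was 7 of 13, with gata3 and egfl7 on 7 arrays and 1 tal1 probe set on 4, against 66.5% of all. A kdr probe set passed on 1 array. The remaining 5 probe sets, 1 each of tal1, gata1, hba1, kdr and tek, were at background on every array. A level at background does not show that a gene was absent, and fewer cells of a type cannot be told apart from less RNA per cell in such bulk samples.

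**Figure D1:**
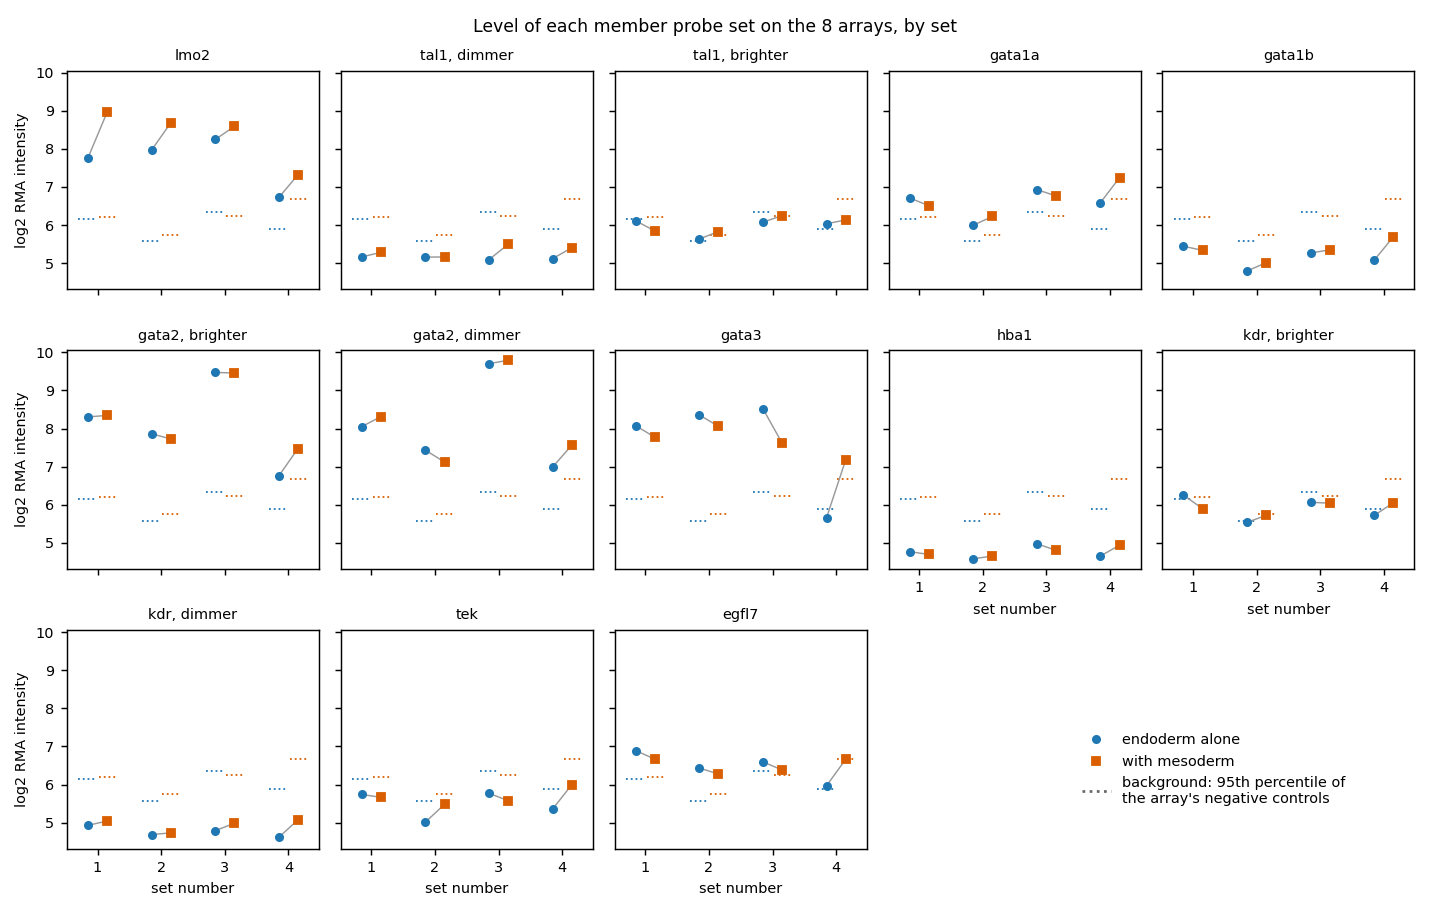
Level of each of the 13 probe sets (log2 RMA intensity, vertical axis) in sets 1 to 4 (horizontal axis), with circles for endoderm alone, squares for endoderm with mesoderm, a line joining the pair of a set and dotted ticks for the background of each array. Lmo2 stood higher with mesoderm in each set, the gata2 levels followed the set rather than the condition, and hba1, tek and a probe set each of tal1, gata1 and kdr lay below the background ticks throughout.

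Lmo2 was the member with the largest difference. This small LIM-domain protein has no DNA contact of its own and is required for blood formation in the mouse. Its level in endoderm alone was 7.76, 7.97, 8.24 and 6.72 in sets 1 to 4 on the log2 scale, and with mesoderm it was 8.96, 8.68, 8.59 and 7.32. The array with mesoderm was higher in every set, both set 4 arrays were lowest, and the groups overlapped because set 4 with mesoderm lay below all of sets 1 to 3. The differences were 1.19, 0.71, 0.34 and 0.59, or 2.29-fold, 1.64-fold, 1.27-fold and 1.51-fold. The mean level was 7.67 ± 0.66 alone and 8.38 ± 0.73 with mesoderm (SD, n = 4), a difference of 0.71 ± 0.36 (SD of the 4 differences within sets) or 1.64-fold.

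This difference did not pass the test. Without a set term, limma gave an unadjusted p of 0.117 and an adjusted p of 1.00, and no probe set of the whole table was called at an adjusted p under 0.05 (0% of 15491, with 2.48% at an unadjusted p under 0.05). With the set as a block, limma gave lmo2 an unadjusted p of 0.00150 and an adjusted p of 0.139 (SE 0.15), while 60 probe sets of all, 0.387%, were called, 40 (0.258%) higher and 20 (0.129%) lower. No member was called in either fit, and lmo2 was the 1 member of 13 with an unadjusted p under 0.05 within sets, against 9.35% of all probe sets. Of all probe sets, 0.736% had a larger mean difference than lmo2 and 1.07% a lower p within sets. Without set 4, the difference within sets was 0.75 with an adjusted p of 0.0412 in limma, so lmo2 rose by that fit, in which 1.08% of all probe sets were called higher. Without set 1, 2 or 3 the adjusted p within sets was 0.532, 0.599 and 0.172.

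Some genes of white blood cells were higher with mesoderm in the same samples by the fit within sets. Of 15 listed myeloid markers 7 were measured, and limma called 3 of these higher within sets, where 0.258% of all probe sets were. They were csf2rb, lcp1 and prtn3, at adjusted p values of 0.0292, 0.0490 and 0.0490 in limma. Without the set term limma called none of them (adjusted p 0.171, 0.447 and 0.904). Csf2rb was at background on every array of endoderm alone. The summed intensity of the myeloid list ran from 661 to 2159 in endoderm alone and from 1965 to 4791 with mesoderm. Lyz and ptprc were at background on all arrays. The ratio of these sums, with mesoderm over alone, was 1.90, 2.78, 5.29 and 1.18 in sets 1 to 4. Most of each sum came from mpo and cebpa, which limma did not call within sets (adjusted p 0.174 and 0.763). Cebpa stood at 9.04, 9.87, 8.41 and 9.66 in endoderm alone of sets 1 to 4. Whether its signal there came from white blood cells was not tested. The mpo ratio was 3.70, 5.17, 14.6 and 1.13 in sets 1 to 4, and the cebpa ratio 0.91, 1.04, 3.04 and 0.96. The lmo2 ratio was largest in set 1 and smallest in set 3. The myeloid ratio was largest in set 3 for the sum, lcp1 and prtn3, and in set 2 for csf2rb. The part of these cells in the lmo2 difference was not tested.

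Lmo2 also differed between sets. Its mean over the 2 conditions was 8.36, 8.32, 8.42 and 7.02 in sets 1 to 4, a range of 2.63-fold, and limma's F test over sets gave an adjusted p of 0.00751. Without set 4 the adjusted p was 0.892, so no difference among sets 1 to 3 was called. Sets held 69.4% of the sum of squares of lmo2 and the condition 25.7%, where the medians over all probe sets were 73.6% and 4.21%.

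Partners of lmo2 in the complex were listed as pathway genes. Ldb1, the adaptor that joins lmo2 to its partners, was bright in every sample, at 10.09, 10.67, 10.67 and 10.71 in endoderm alone and 10.18, 10.54, 10.68 and 10.68 with mesoderm. The values of its conditions overlapped, and the difference was -0.01 ± 0.09 for this probe set and 0.01 ± 0.29 for the other. Lmo4 is a relative of lmo2. Its brighter probe set stood at 9.28, 7.91, 9.92 and 7.18 alone and at 9.42, 7.90, 9.49 and 7.86 with mesoderm. These levels followed the sets, high in 1 and 3 and low in 2 and 4, with a difference of 0.10 ± 0.46. The dimmer lmo4 probe set, above background on 2 arrays, was lowest in set 2 in both conditions, with a difference of 0.12 ± 0.28. Ldb1 and lmo4 were picked for the text after their values were seen.

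Tal1, also called scl, is the master regulator of blood in vertebrates and heads the list of partners. Its brighter probe set read 6.11, 5.63, 6.07 and 6.03 in endoderm alone and 5.85, 5.83, 6.25 and 6.13 with mesoderm, above background on 4 arrays. The groups overlapped, and the difference was 0.05 ± 0.21 with an adjusted p of 0.936 within sets in limma. The dimmer probe set read 5.16, 5.16, 5.09 and 5.12 alone and 5.28, 5.16, 5.50 and 5.40 with mesoderm. It was above its pair in each set by 0.12, 0.01, 0.40 and 0.28, yet at background on all 8 arrays, and its difference of 0.20 ± 0.17 had an adjusted p of 0.692 within sets.

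Gata1, the factor that drives red cell genes, was read by a probe set for each of its copies. The gata1a probe set was 6.71, 5.99, 6.93 and 6.59 in endoderm alone and 6.51, 6.22, 6.77 and 7.24 with mesoderm. It exceeded background on every array, but by 0.31 to 0.69 only, and its level moved with the mean of the negative controls of the same array (Pearson r = 0.958 over 8 arrays, which form 4 pairs). Its difference was 0.13 ± 0.40, with 2 sets higher and 2 lower, and -0.05 within sets when set 4 was left out. The gata1b probe set was at background on all arrays with a difference of 0.20 ± 0.30 and r = 0.907 with the negative controls. By set its differences were -0.11, 0.22, 0.08 and 0.61, so the mean rested mostly on set 4. Neither was called, at adjusted p values of 0.874 and 0.746 within sets in limma.

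Alpha globin is the end product of the red cell programme. Its gene hba1 read 4.77, 4.58, 4.98 and 4.66 in endoderm alone and 4.70, 4.66, 4.81 and 4.94 with mesoderm. All 8 values lay below the array's background threshold, the groups overlapped, and the level moved with the negative control mean (r = 0.953). The difference of 0.03 ± 0.20 changed sign, to -0.02, after each of quantile normalization, cyclic loess and centring on the negative controls. Of 11 other globin names 2 were matched to probe sets, hbd and hbg2. The file names the hbd probe set hbb, and those of hbg2 hbb2 or only a gene ID. Hbb2, itself a listed name, was thus counted under hbg2, and which beta-type globin each probe set reads is in doubt. Hbd and hbg2 were both above background on all arrays, hbg2 by its brightest probe set. Yet the difference of hbd was 0.03 ± 0.24 and its r with the negative controls 0.759. For that hbg2 probe set these were 0.14 ± 0.34 and 0.946. The other hbg2 probe sets differed by 0.19 ± 0.41 and -0.02 ± 0.15, above background on 5 and 0 arrays.

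**Figure D2:**
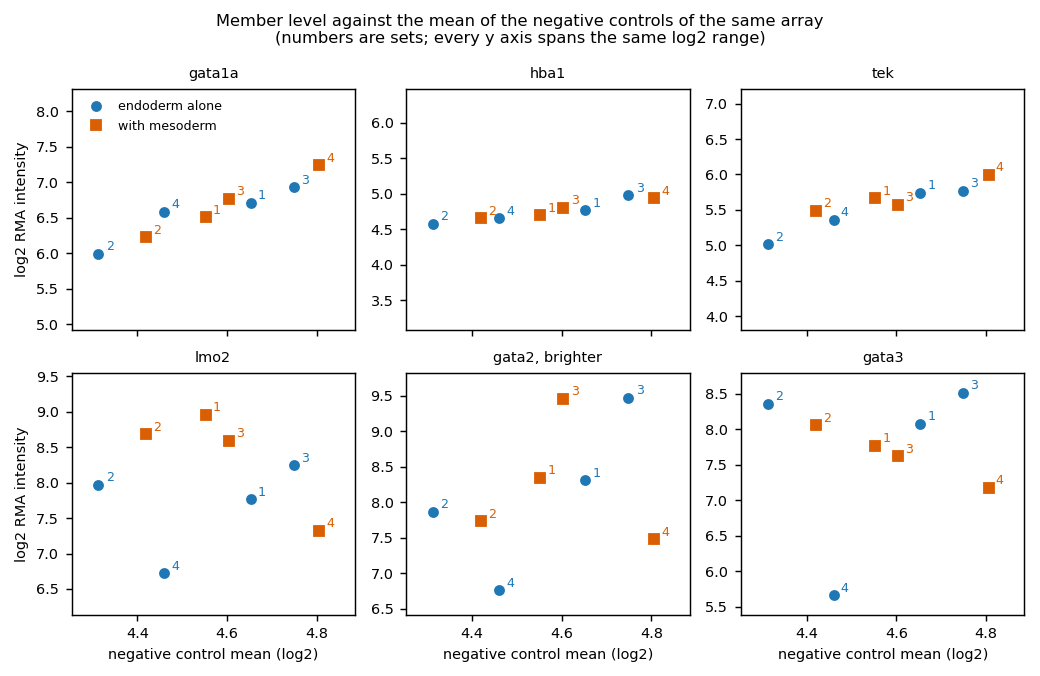
Level of 6 probe sets (log2 RMA intensity, vertical axis) against the mean of the 50 negative controls of the same array (log2, horizontal axis), with circles for endoderm alone, squares for endoderm with mesoderm and the set number beside each point. The points of gata1a, hba1 and tek lie near a line, with r of 0.958, 0.953 and 0.939, and those of lmo2, gata2 and gata3 do not, with r of -0.10, 0.38 and 0.05.

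Gata2 keeps blood precursors dividing and, in Xenopus, is also active in ventral ectoderm. Its dimmer probe set read 8.05, 7.43, 9.71 and 6.99 in endoderm alone and 8.31, 7.12, 9.79 and 7.56 with mesoderm. The brighter one read 8.31, 7.86, 9.47 and 6.76 alone and 8.35, 7.73, 9.46 and 7.48 with mesoderm. Set 3 was highest in both conditions for both probe sets, and the conditions overlapped almost fully. The probe sets went together over the 8 arrays (r = 0.955), a description in which the arrays form 4 pairs.

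The condition made little of this spread. The differences were 0.26, -0.31, 0.09 and 0.57 for the dimmer probe set and 0.04, -0.14, -0.02 and 0.72 for the brighter, and both means were 0.15, with an SD of 0.37 and 0.38. Limma gave adjusted p values of 0.845 and 0.850 within sets. Without set 4 the means were 0.01 and -0.04.

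Gata2 differed between sets by both probe sets. The means of sets 1 to 4 were 8.18, 7.28, 9.75 and 7.28 for the dimmer probe set and 8.33, 7.80, 9.47 and 7.12 for the brighter. These ranges came to 5.54-fold and 5.09-fold, and sets held 97.0% and 95.7% of the sum of squares. Limma's F test over sets gave adjusted p values of 0.00134 and 0.00232. In all 3 other scalings and with each set left out in turn the adjusted p stayed under 0.05, and the highest was 0.0430, for the dimmer probe set without set 3. Of the 13 member probe sets 3 were called by this test, both of gata2 and that of lmo2, where 30.7% of all probe sets were called.

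Most cardiac and lateral plate markers measured were at background, which limits what their order of sets can show. Of 15 listed 12 were measured, none was called between conditions in either fit, and 7 of them, foxf1, myl3, tbx20, tbx5, tnni3, tnnt2 and wt1, were at background on all arrays. Their summed intensity was 1573, 1134, 1977 and 672 in endoderm alone and 1594, 1188, 2028 and 1082 with mesoderm, highest in set 3 and lowest in set 4. The gene bmp4 decided which set was highest in endoderm alone: without it the sums were 989, 814, 876 and 548 alone and 986, 788, 1005 and 798 with mesoderm. Of the 12 genes 2 were called between sets, bmp4 and nkx2-5, where 30.7% of all probe sets were. Both are named after their values were seen. Bmp4, a ventral signal, stood at 9.19, 8.32, 10.10 and 6.95 alone and at 9.25, 8.65, 9.998 and 8.15 with mesoderm. Nkx2-5, a heart factor, stood at 8.75, 8.68, 8.10 and 5.55 alone and at 8.77, 8.44, 8.79 and 6.97 with mesoderm. Both were lowest in set 4, and nkx2-5 in endoderm alone was highest in set 1. Of 16 epidermal markers 8 were measured, and dlx3, foxi1, grhl3 and tp63 were at background on all arrays. The summed intensity was 2852, 2243, 2802 and 2278 alone and 2125, 2064, 2514 and 1556 with mesoderm. Cldn6 made up 1613, 1247, 834 and 735 of it alone and 765, 737, 708 and 389 with mesoderm. In sets 1 and 2 cldn6 fell by more than the whole sum did. The part of other tissue in the gata2 levels was not tested.

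**Figure D3:**
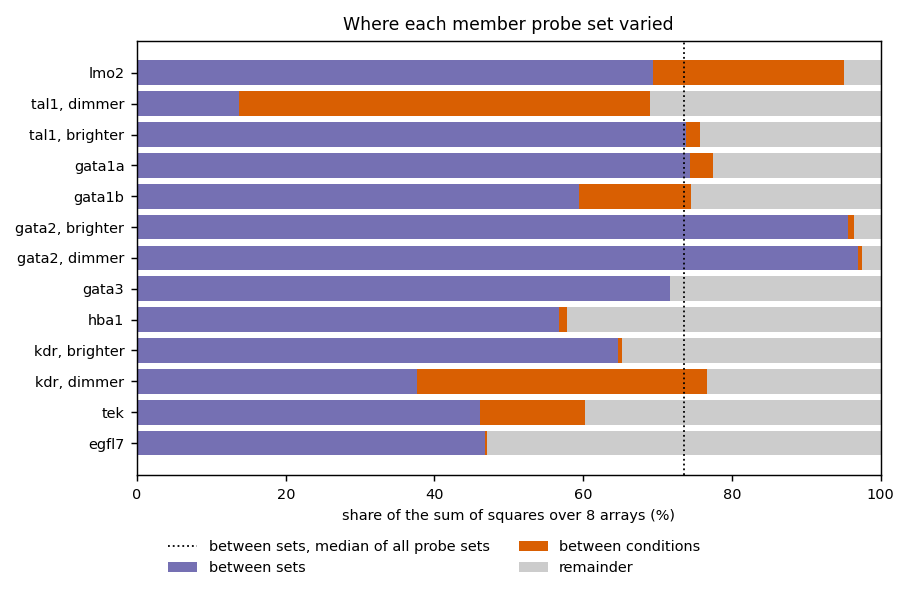
Share of the sum of squares over 8 arrays (%, horizontal axis) that lay between sets, between conditions and in the remainder, for each of the 13 probe sets. Both gata2 bars are almost wholly between sets (95.7% and 97.0%), lmo2 has 25.7% between conditions, and the dotted line marks the median share between sets of all probe sets, 73.6%.

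Gata3 is a factor of T cells, and in embryos also of ectoderm, kidney and neurons. Its levels in endoderm alone were 8.08, 8.36, 8.52 and 5.66 in sets 1 to 4, and with mesoderm 7.77, 8.06, 7.62 and 7.18. The array of endoderm alone in set 4 lay at background and apart from all others, and with mesoderm the arrays were closer together. Gata3 was lower with mesoderm by 0.30, 0.30 and 0.90 in sets 1 to 3 and higher by 1.51 in set 4.

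These differences cancelled to a mean of 0.00 ± 1.05, at an adjusted p of 0.999 within sets in limma. Without set 4 the difference was -0.50, with an unadjusted p of 0.00412 and an adjusted p of 0.104 within sets, so it was not called. Over sets, limma's F test gave an adjusted p of 0.0542. The summed intensity of the 12 neural markers measured of 13 listed was also lowest in endoderm alone of set 4, at 416 against 679 to 1056 in sets 1 to 3 and 688 to 763 with mesoderm, and 9 of the 12 were at background on all arrays. Sox2 and sox3, which mark neural precursors, set that order: without both, the sums alone were 301, 256, 321 and 274, and set 2 was lowest. Of the 10 genes left 9 were at background on all arrays, so these sums cannot show whether other neural markers fell in set 4. Set 2 also had the lowest negative control mean in endoderm alone, at 4.31. Of the 12 genes 1, sox3, was called between sets. Markers of the pronephros, the early kidney, summed to 329, 227, 413 and 282 in endoderm alone of sets 1 to 4, lowest in set 2. Of the 5 measured, lhx1, pax2 and wnt4 were at background on all arrays, and these sums ranked the sets as the negative control means did. The epidermal sum in endoderm alone was also lowest in set 2, at 2243 against 2278 in set 4. The part of neural, ectodermal or kidney tissue in the gata3 values was not tested.

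None of the endothelial members was called between conditions, and kdr and tek lay at or near background, which limits what their values can show. Kdr, the receptor flk-1 through which VEGF acts on vessel precursors, was read by its brighter probe set at 6.26, 5.54, 6.07 and 5.72 in endoderm alone and 5.90, 5.72, 6.04 and 6.06 with mesoderm. It passed background on 1 array, endoderm alone of set 1, and the difference was 0.03 ± 0.30. Its dimmer probe set read 4.93, 4.69, 4.79 and 4.62 alone and 5.04, 4.73, 4.99 and 5.07 with mesoderm. That was higher in each set, by 0.04 to 0.46, with overlapping groups, and at background on all arrays, with a difference of 0.20 ± 0.18 and an adjusted p of 0.692 within sets in limma.

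Tek, the Tie2 receptor that steadies vessels, read 5.74, 5.02, 5.77 and 5.36 in endoderm alone and 5.67, 5.48, 5.58 and 5.998 with mesoderm. All arrays were at background, the groups overlapped, and the level moved with the negative controls (r = 0.939). The difference was 0.21 ± 0.41, and by set -0.07, 0.47, -0.19 and 0.64, largest in set 4. Egfl7, which endothelial cells secrete into their matrix, read 6.89, 6.43, 6.60 and 5.97 alone and 6.67, 6.28, 6.38 and 6.66 with mesoderm, above background on 7 arrays. It was lower with mesoderm by 0.23, 0.16 and 0.21 in sets 1 to 3 and higher by 0.69 in set 4, a mean of 0.02 ± 0.45 and -0.20 without set 4.

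**Figure D4:**
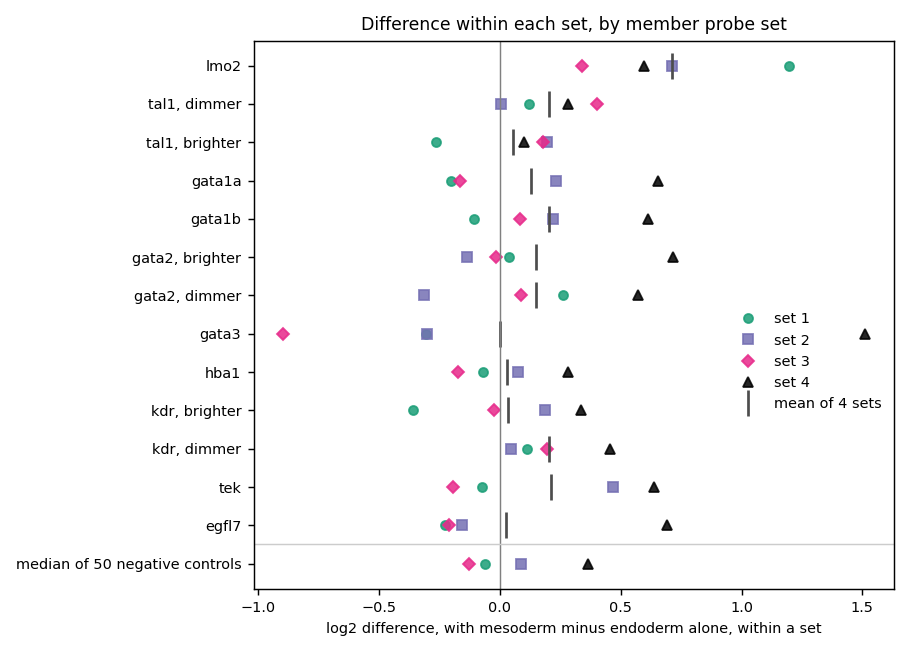
Log2 difference, with mesoderm minus endoderm alone, in each of the 4 sets (horizontal axis; 1 symbol per set) for the 13 probe sets, with a bar at the mean and, below the line, the median of the 50 negative controls. Lmo2 is above 0 in all sets by 0.34 to 1.19, and the set 4 triangle is above 0 for all 13 probe sets and for the negative controls, at 0.365.

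Over the members together, the mean difference was above 0 for 13 of 13 probe sets, where 51.6% of all probe sets were above 0, and the median was 0.15 against 0.01 for all. In set 4 alone all 13 were higher, by a median of 0.59, where 54.3% of all probe sets were higher and the negative controls were higher by a median of 0.365. Without set 4 the mean difference was above 0 for 7 of 13, against 47% of all, and the median was 0.01 against -0.01. After each array was centred on its negative controls it was above 0 for 9 of 13, against 38.6% of all. The negative controls differed by -0.06, 0.09 and -0.13 in sets 1 to 3. For 6 of the 13 the level had an r above 0.75 with the negative control mean: 1 probe set each of tal1 and kdr, both of gata1, hba1 and tek. The share of all probe sets above that r was not counted, so the count is not a result about the members. Outside the members, r was 0.962 for nrp1 and 0.261 for hhex, both at background on all arrays.

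Higher in 4 of 4 sets were 3 of the 13, lmo2 and the dimmer probe sets of tal1 and kdr, where 8.35% of all probe sets were, and of these only lmo2 was above background. None had groups that did not overlap, where 1.03% of all probe sets were higher without overlap and 0.859% lower. No member was lower in 4 of 4 sets, where 10.3% of all probe sets were.

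The wider blood and endothelial list held 103 other names, of which 31 genes were measured and 17 were above background on at least 4 arrays. None of the 31 was called by limma in either fit, and 3 had an unadjusted p under 0.05 within sets and 1 without the set term, where 9.35% and 2.48% of all probe sets did. The difference was above 0 for 19 of the 31, against 51.6% of all probe sets, with a median of 0.04 against 0.01. Between sets 7 were called, against 30.7% of all. By group, 2 globins, 3 genes of haem and the red cell membrane, 10 blood regulators and 16 endothelial genes were measured.

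Taking the brightest probe set of each gene, the 3 highest mean differences among those above background did not pass the test. Fli1, an ETS factor at the head of the endothelial and blood programmes, read 6.93, 6.40, 5.54 and 5.47 in endoderm alone and 6.50, 6.24, 6.98 and 6.39 with mesoderm. It was lower with mesoderm in sets 1 and 2 and higher in sets 3 and 4, a mean of 0.44 ± 0.88. Aplnr, the apelin receptor of early vessel cells, read 6.33, 6.85, 5.71 and 6.91 alone and 6.73, 6.87, 6.79 and 6.81 with mesoderm, a difference of 0.35 ± 0.53. Its other probe set was higher in all 4 sets, by 0.47 ± 0.28 with an adjusted p of 0.271 within sets in limma, and above background on 2 arrays. Tcf3 followed, at 0.18 ± 0.16. The file's older name for that probe set is also used for a Wnt pathway factor, so its identity is in doubt. The tcf3 probe sets filed under tcfe2a, an E2A name, were at -0.03 ± 0.28 and 0.09 ± 0.28, above background on 6 and 8 arrays.

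The 3 lowest mean differences, again by the brightest probe set, did not pass either. Ets1, an ETS factor of endothelium and other tissues, read 9.97, 9.39, 10.31 and 9.14 in endoderm alone and 9.60, 8.54, 10.13 and 8.16 with mesoderm by its brightest probe set. It was lower in every set, by 0.60 ± 0.38, with an unadjusted p of 0.00507 and an adjusted p of 0.234 within sets in limma. The 3 probe sets of ets1 disagreed, since another, above background on 5 arrays, was higher in all 4 sets by 0.48 ± 0.17 (adjusted p 0.205), above the mean difference of fli1. For nfe2 and epb41 the brightest probe sets were at -0.55 ± 0.31 and -0.20 ± 0.30. The nfe2 name came by gene ID for 5 probe sets that differ in sign, and its identity is in doubt. Erg, a further ETS factor of endothelium picked after its values were seen, was higher in all 4 sets by both probe sets, 0.44 ± 0.35 and 0.39 ± 0.19, but was at background on all arrays. By the 1 probe set that the file names kit, this listed blood regulator, picked likewise, was lower in all 4 sets, with a mean of -0.68 ± 0.71. That probe set passed background on 1 array and had an adjusted p of 0.399 within sets in limma. The brightest probe set matched to kit was at -0.09 ± 0.23. The file names it kl1, taken as a synonym of kit, so its identity is in doubt.

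The named genes with the most similar pattern over the 8 arrays were listed by Pearson r, as a description over arrays that form 4 pairs and share their set levels. For lmo2 they were hipk2 (r = 0.933), a nuclear kinase, pde7a (r = 0.932), a cyclic AMP phosphodiesterase, and rbm14 (r = 0.924), an RNA-binding protein. For gata2, by its brighter probe set, they were chst11 (r = 0.982), a chondroitin sulfotransferase, sp5l (r = 0.980), a zinc finger factor, and tubb4b (r = 0.974), a beta tubulin. For gata3 they were spry2 (r = 0.984), an inhibitor of receptor tyrosine kinase signalling, irx3 (r = 0.962), a homeobox factor, and topbp1 (r = 0.946), a DNA replication protein. Irx3 in endoderm alone was 8.06, 8.78, 8.08 and 5.16 in sets 1 to 4 and with mesoderm 7.91, 8.30, 7.74 and 7.42, so like gata3 it was lowest in endoderm alone of set 4.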

How the data were processed

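RNA of 8 samples was hybridised to 8 Affymetrix arrays. The deposited values are linear intensities per probe set, made by the authors with RMA (background correction, quantile normalization, probe summary), per the submitters' processing notes. The software that ran RMA and any genome build were not given in the sources used here. The file header names 2 data sets, so other arrays may have entered the normalization. The series matrix equalled the annotated table in 124888 of 124888 cells (tolerance 0.001). No counts lie behind the values, and the number of arrays limits precision.

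Log2 was taken of the deposited values. Of 15611 probe sets 120 controls were left out. A RefSeq gene table named 5539 probe sets, for 3770 genes, through symbol (2114), gene ID (2106) or synonym (1319). The 50 negative controls were bacterial, tag and fluorescent protein probe sets. They were taken by name, and whether any of these sequences had been added to the RNA was not checked. Conditions were compared in limma 3.58.1 (R 4.3.3; lmFit, eBayes, Benjamini-Hochberg over 15491 probe sets), without a set term and with the set as a block. Deviations of same-numbered arrays correlated at 0.844, 0.850, 0.689 and 0.321 in sets 1 to 4, all above 0.1, so set numbers were taken to pair arrays, on these data and not on the labels. The fit was tested on simulated data. Differences are log2, with mesoderm minus alone, and ± is an SD.

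The members and lists were chosen with earlier results of these data known. Named were all member probe sets, list genes called in either fit, the 3 highest and 3 lowest differences of list genes (brightest probe set of each) above background on at least 4 arrays, and the 3 genes most alike to lmo2, gata2 and gata3. Alternatives were the set as a block or random effect, scalings, filters, thresholds, and leaving out arrays or sets. Combinations of the block with scalings were added after seeing the data.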

Additional observations from a re-analysis of the deposited data

Results flagged for a closer look

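Among 26 groups of 4 arrays (13 probe sets in each condition) 2 held an array that lay apart from the other 3, where chance gives about 1 in 20. Gata3 in endoderm alone of set 4 stood at 5.66, against 8.08 to 8.52 in sets 1 to 3. Tal1, by its brighter probe set, in endoderm alone of set 2 stood at 5.63, against 6.03 to 6.11 in the others, and set 2 also had the lowest negative control mean of that condition.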

How the results depend on the processing

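Lmo2 was higher with mesoderm in all 29 alternatives, by 0.39 to 1.07 on the log2 scale, and was called in 1 of them, within sets without set 4. No other member was called in any alternative, so the members called ranged from 0 to 1 over those that left out an array or a set. With the set as a replicate block, 40 probe sets were called higher and 20 lower, and with a random set effect 56 and 26. With the block and quantile normalization these were 15 and 10, with the block and cyclic loess 13 and 8, with the block and the filter on dim probe sets 11 and 8, and with the block and a trended, robust variance 41 and 22. With the block and centring on the negative controls 1 was called lower. When an array or a set was left out, 0 to 168 were called higher and 0 to 107 lower. With and without the block, centring turned the mean differences of gata3 to -0.0497, egfl7 to -0.0278, hba1 to -0.0241 and the brighter kdr probe set to -0.0176. Quantile normalization turned hba1 to -0.0215 and that kdr probe set to -0.0105, and loess to -0.0184 and -0.00663. Without set 4 the differences within sets turned to -0.501 for gata3, -0.0455 for gata1a, -0.0379 for the brighter gata2 probe set, -0.0575 for hba1, -0.0665 for the brighter kdr probe set and -0.198 for egfl7, and without set 2 that kdr probe set turned to -0.0161. The cause was not tested. Leaving out an array or a set gave differences of -0.0576 to 0.157 for the brighter tal1 probe set, -0.0576 to 0.283 for gata1a, -0.297 to 0.608 for the brighter and -0.380 to 0.704 for the dimmer gata2 probe set. It gave -0.661 to 0.302 for gata3, -0.0575 to 0.105 for hba1, -0.0847 to 0.165 for the brighter kdr probe set and -0.198 to 0.164 for egfl7. The share of probe sets that differed between sets was 7.72% after centring and 9.44% to 62.7% with a set left out, and 3 to 6 member probe sets were among them. By the mean plus 2 SD of the negative controls, 7 member probe sets were at background on all arrays in place of 5. Probe sets near background limit what 8 arrays can show for most of these genes.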
